A study of Homo sapiens with 34 samples.

Results

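The comparison was between paraxial mesoderm (PM) obtained from posterior primitive streak (PPS) cells, called PPS-PM, and the standard PM of the protocol, obtained from anterior primitive streak (APS) cells and called APS-PM. Its members are the 4 libraries whose column labels carry these names at 48 h, 2 on each side, of 34 libraries in the series. All were made from ESI017, a wild-type and long established line of human embryonic stem cells. The day 1 mixture of APS cells held 30 ng/ml of activin, CHIR99021 (an inhibitor of GSK3 that activates WNT signaling) at 4 µM, and 20 ng/ml of bFGF. For PPS cells it held BMP4 at 40 ng/ml, bFGF at 20 ng/ml and CHIR99021 at 6 µM, with no activin. Both then spent day 2 in the same PM medium, with 20 ng/ml bFGF, 250 nM of the BMP receptor inhibitor LDN-193189 and 1 µM of the activin receptor inhibitor A-8301. A legend of the study also lists CHIR99021 in this medium, and its text describes WNT activation on day 2 of PM. The labels and the study's methods list no CHIR99021 there. The sides therefore differed on day 1 in BMP4, activin and the CHIR99021 dose together, and these cannot be told apart. The cells are 1 line, so the libraries sample differentiations of it and not different donors.

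In the embryo, the primitive streak is the site where epiblast cells leave the epithelium and become mesoderm and endoderm, and the position and time of their exit set their fate. Presomitic mesoderm, the precursor of the somites, comes from the streak and later from the tail bud, under WNT and FGF signaling, and carries the segmentation clock. HOX genes are switched on in the order of their paralogue numbers as the axis grows, with CDX factors upstream of many of them, and the set that a cell expresses marks its level along the body axis.

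Estimated counts per gene were deposited for each library. The 4 libraries held 20913478 to 23439799 estimated counts, against 15522780 to 23439799 in all 34. Levels are given as CPM, counts scaled to the library total, and are comparable between libraries but not between genes, because gene length is not accounted for. Of 37951 genes listed, 17895 had enough counts to be tested. Log2 fold changes (PPS-PM over APS-PM, with SE) and adjusted p-values are from the quasi-likelihood test of edgeR fitted over all 34 libraries, and genes with an adjusted p below 0.05 were called. A gene was taken to be at the floor of a group when each of the group's libraries held at most 3 counts. Where all of these were 0, its fold is given as a lower bound, set against 3 counts per library, and otherwise as the ratio of the summed counts with an exact 95% interval. Both cover counting error only. Replicates lay closer to each other than to the other side, with Euclidean distances on log2(CPM + 1) of 58.2 between the APS-PM libraries, 61.0 between the PPS-PM libraries and 74.5 to 91.0 across the sides. Counts from bulk samples do not separate fewer cells of a type from less RNA per cell.

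Both sides carried the markers of presomitic mesoderm, and none of the best known passed the test for a difference. TBX6, the T-box factor that defines paraxial mesoderm, stood at 163 and 171 CPM in APS-PM and at 183 and 195 CPM in PPS-PM (log2 0.19, SE 0.23, adjusted p = 0.731). MSGN1, which drives presomitic differentiation, stood at 60.8 and 49.7 CPM in APS-PM and at 96.8 and 80.7 CPM in PPS-PM. Its PPS-PM libraries were both higher, but the difference of 0.70 log2 units (SE 0.22) did not pass the test (adjusted p = 0.0883). The clock gene HES7 was at 85.7 and 61.9 CPM against 137 and 127 CPM (log2 0.85, SE 0.33, adjusted p = 0.165), and DLL3 at 667 and 785 CPM against 633 and 1120 CPM. Summed over 8 paraxial markers, the 4 libraries held 1220 to 1740 CPM, against 9.30 and 12.9 CPM in lateral mesoderm (LM) made by the standard protocol.

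Markers of lateral mesoderm, amnion and pluripotency summed to less than in the populations of the series that served as references. Each endoderm marker except CXCR4 was below its level in endoderm made by the standard protocol. No population of the series was made as neural, blood or germ cells, so the markers of these are given as levels only. The 4 lateral markers HAND1, HAND2, FOXF1 and ISL1 summed to 3.58 and 6.89 CPM in APS-PM and to 1.71 and 6.88 CPM in PPS-PM, against 1970 and 2340 CPM in standard LM, and ISL1 was at 0 in 1 library of each side. Of the endoderm markers SOX17, FOXA2, HHEX and CXCR4, only CXCR4, which mesoderm also expresses, exceeded 3 CPM in any of the 4 libraries (232 to 321 CPM), and the other 3 were at 0 in both PPS-PM libraries. The 5 amnion markers summed to 1.37 and 2.82 CPM in APS-PM and to 7.39 and 13.0 CPM in PPS-PM, against 333 and 459 CPM in PPS cells moved to LM medium. The amnion sum in PPS-PM came from TFAP2A and GATA3, while GABRP, VTCN1 and ISL1 were each below 0.5 CPM there. The 4 pluripotency markers held 203 and 291 CPM in APS-PM and 194 and 250 CPM in PPS-PM, against 1570 and 1890 CPM in undifferentiated cells, and the neural markers SOX1, PAX6, SOX2 and SOX3 summed to at most 12.9 CPM. Blood and endothelial markers (PECAM1, CDH5, TAL1 and ETV2) summed to 0.821 to 2.98 CPM and germ cell markers (NANOS3, DND1, TFAP2C and SOX17) to 4.45 to 6.99 CPM, with NANOS3 at 0 in all 4 libraries. Whether minor populations took part in the differences below was not tested.

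Despite the shared medium and the shared markers, the PM populations differed in 940 genes, which is 5.25% of those tested. The changes were balanced, with 470 genes higher in PPS-PM (2.63%) and 470 lower (2.63%). Among the called genes the median absolute log2 fold change was 1.43, 682 changed by at least 2-fold and 302 by at least 4-fold as fitted. At least 10 CPM was reached on 1 side by 673 of them. The libraries of the sides did not overlap for any of the 940, but this also held for 43.6% of all genes tested. In 24 called genes APS-PM was at the floor and in 25 PPS-PM was. The number of calls depended on single libraries and was 416 without APS-PM replicate 1, 618 without APS-PM replicate 2, 767 without PPS-PM replicate 1 and 504 without PPS-PM replicate 2.

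**Figure D1:**
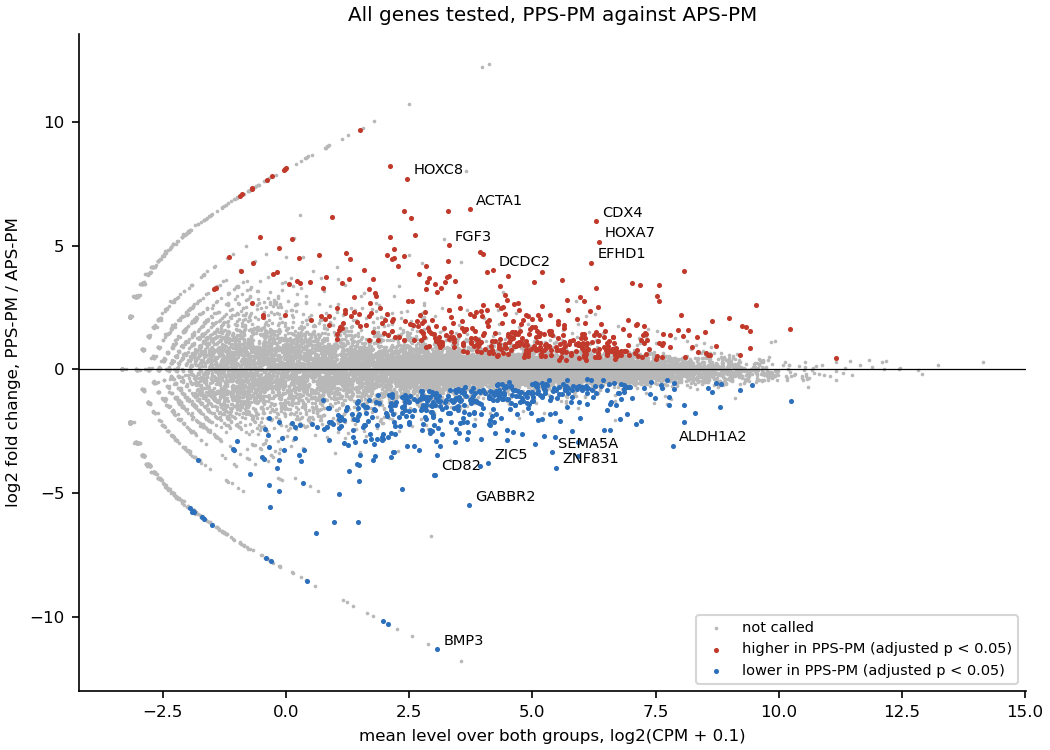
Log2 fold change of PPS-PM over APS-PM (vertical axis, fitted) against the mean level of both groups (horizontal axis, log2 of CPM plus 0.1) for the 17895 genes tested. Red and blue points are the 470 genes called higher and the 470 called lower, grey points are not called, and the curved outer edges are genes at 0 in 1 group, whose fitted change is not a bound.

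The largest rises among called genes of at least 10 CPM were those of HOXC8, ACTA1, TNMD, CORIN and C1orf105, with CDX4 next. CDX4 (ENSG00000131264, chromosome X), a caudal-type homeobox factor that acts upstream of HOX genes, was at 2.34 and 2.52 CPM in APS-PM and at 181 and 125 CPM in PPS-PM. The 2 sides were far apart, and the log2 fold change reached 5.98 (SE 0.61, adjusted p = 3.35e-06). ACTA1, the actin of skeletal muscle, was at 0.239 and 0.341 CPM in APS-PM and at 33.0 and 19.0 CPM in PPS-PM (log2 6.46, SE 0.59, adjusted p = 1.08e-06). TNMD, a membrane protein of the tendon lineage, rose from 0.191 and 0.0427 CPM to 10.9 and 9.48 CPM (log2 6.41, SE 1.08, adjusted p = 0.000777). CORIN, a protease that processes natriuretic peptides, rose from 0.239 and 0.213 CPM to 24.7 and 13.8 CPM (log2 6.38, SE 1.05, adjusted p = 0.000585). The rise of C1orf105 (log2 6.10, adjusted p = 0.00795) was no longer called without APS-PM replicate 1 (adjusted p = 0.107) or replicate 2 (adjusted p = 0.0741). The other 9 of the 15 leading rises had log2 fold changes of 4.00 to 5.42. They were HPGD, which breaks down prostaglandins, HOXA7, FGF3, the phosphatase inhibitor PPP1R14C, the potassium channel subunit ABCC9, the hyaluronan receptor STAB2, the calcium-binding mitochondrial protein EFHD1, the hemidesmosome collagen COL17A1 and DCDC2. EFHD1 had the smallest SE of these, at 5.59 and 8.50 CPM against 142 and 136 CPM (log2 4.31, SE 0.41).

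Among the falls, BMP3, a divergent BMP ligand, was absent from the counts of PPS-PM. BMP3 (ENSG00000152785) was at 6.86 and 26.3 CPM in APS-PM and had no count in either PPS-PM library, so that it was at least 122-fold lower there (adjusted p = 0.00152). GABBR2, a subunit of the GABA-B receptor, fell from 19.8 and 30.8 CPM to 0.605 and 0.523 CPM (log2 −5.46, SE 0.48, adjusted p = 7.58e-07). CD82, a tetraspanin, fell from 20.6 and 9.67 CPM to 0.908 and 0.666 CPM (log2 −4.24, SE 0.71). BGN, which encodes the matrix proteoglycan biglycan, fell from 135 and 88.3 CPM to 11.9 and 7.57 CPM (log2 −3.51, SE 0.44, adjusted p = 3.52e-05). The 2 replicates of ZNF831, a zinc-finger gene, were far apart in APS-PM at 44.5 and 123 CPM, against 3.46 and 7.18 CPM in PPS-PM. Its call was kept only without APS-PM replicate 1 and was lost without APS-PM replicate 2 (adjusted p = 0.0836), PPS-PM replicate 1 (0.0878) or PPS-PM replicate 2 (0.0554). The call of MYH7B, a myosin heavy chain gene, was lost without the same 3 libraries, at adjusted p = 0.311, 0.168 and 0.0842. The remaining 9 leading falls, from −3.01 to −3.88, were those of the sialyltransferase ST8SIA3, the factors ZIC5, OTX2 and FOXB1, the semaphorin SEMA5A, the membrane-anchored protease MMP25, the synaptic gene UNC13A, the receptor PEAR1 and ALDH1A2. Of the 30 leading genes, 27 kept their call without each of the 4 libraries.

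**Figure D2:**
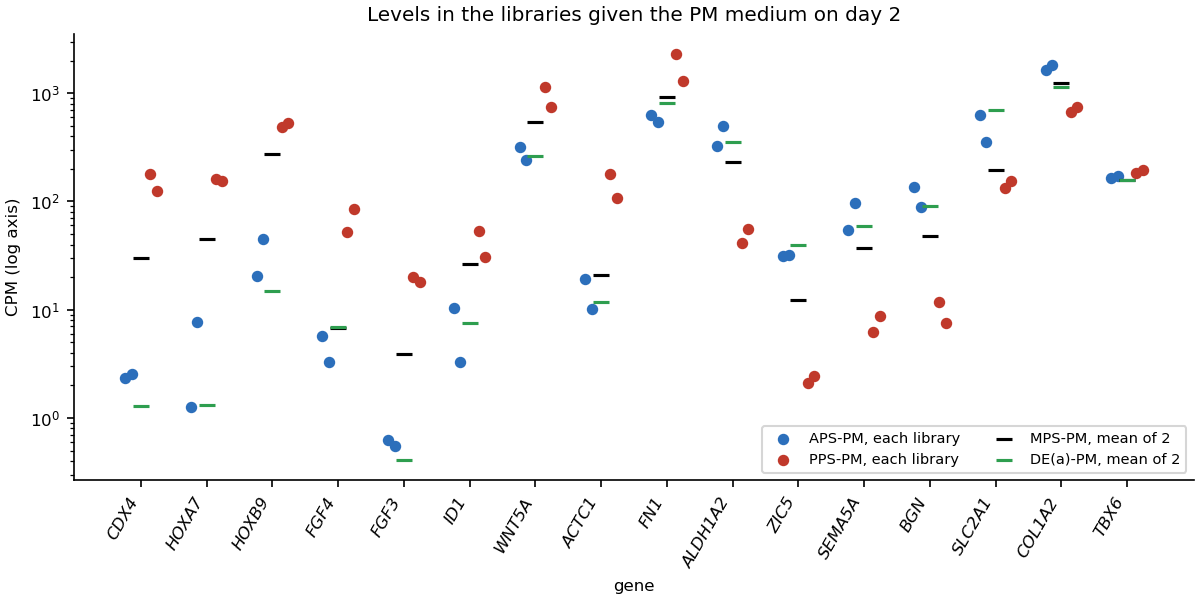
Level in CPM (log axis) of 16 genes in each APS-PM library (blue) and each PPS-PM library (red), with the means of the MPS-PM (black) and DE(a)-PM (green) libraries as dashes. TBX6 lies between 157 and 195 CPM throughout, while CDX4, at 2.34 and 2.52 CPM in APS-PM against 181 and 125 CPM in PPS-PM, and ZIC5, at 31.4 and 31.9 CPM against 2.12 and 2.43 CPM, are far apart in opposite directions.

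The HOX clusters accounted for several of these differences, and all 9 called HOX genes were higher in PPS-PM. They were 3 of 11 tested genes of the HOXA cluster (27.3%), 3 of 10 of HOXB (30%), 2 of 7 of HOXC (28.6%) and 1 of 9 of HOXD (11.1%). The share of all genes tested was 5.25%. The median log2 fold change was 1.63, 0.90, 2.15 and 0.00, respectively, or 3.0 for HOXC and 1.16 for HOXD with genes at the floor of 1 group set against 3 counts per library and those at the floor of both left out, against 0 for all genes tested. Promoter windows of called HOX genes are shown because CDX4, the factor upstream of HOX genes, was among the leading rises. The windows run from 250 bases before to 50 bases after a RefSeq transcription start (GRCh38.p14), are written 5′ to 3′ on the gene's strand, and carry in capitals the letters TTTATG, a caudal-type (CDX) motif, and CTTTGA, a TCF/LEF motif of WNT signaling, on either strand (CATAAA and TCAAAG). Windows were listed for 4 of the 9 called HOX genes, and HOXB6, HOXB8, HOXB9, HOXC6 and HOXC8 had no entry. The first of 7 HOXA3 windows is chr7:27152534-27152833 (minus strand), that of HOXA9 is chr7:27165488-27165787 (minus strand), that of HOXA7 is chr7:27156626-27156925 (minus strand), and that of CDX4 itself is chrX:73446803-73447102 (plus strand).
HOXA3: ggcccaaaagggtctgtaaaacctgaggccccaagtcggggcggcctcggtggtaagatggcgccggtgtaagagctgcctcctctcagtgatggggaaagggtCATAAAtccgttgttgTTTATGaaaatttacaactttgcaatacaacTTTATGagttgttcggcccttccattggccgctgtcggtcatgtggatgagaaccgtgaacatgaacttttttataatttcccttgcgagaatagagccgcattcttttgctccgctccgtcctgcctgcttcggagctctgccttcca
HOXA9: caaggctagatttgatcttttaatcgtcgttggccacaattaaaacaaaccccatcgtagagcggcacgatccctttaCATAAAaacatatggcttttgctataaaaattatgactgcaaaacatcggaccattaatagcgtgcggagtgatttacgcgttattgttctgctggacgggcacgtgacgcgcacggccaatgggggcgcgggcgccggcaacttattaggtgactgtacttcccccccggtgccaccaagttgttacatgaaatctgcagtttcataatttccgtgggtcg
HOXA7: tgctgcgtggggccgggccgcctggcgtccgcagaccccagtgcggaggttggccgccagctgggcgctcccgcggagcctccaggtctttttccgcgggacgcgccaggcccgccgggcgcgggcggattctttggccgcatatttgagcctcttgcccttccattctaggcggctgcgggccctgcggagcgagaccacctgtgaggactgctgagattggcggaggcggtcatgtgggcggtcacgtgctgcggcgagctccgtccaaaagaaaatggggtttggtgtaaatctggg
CDX4: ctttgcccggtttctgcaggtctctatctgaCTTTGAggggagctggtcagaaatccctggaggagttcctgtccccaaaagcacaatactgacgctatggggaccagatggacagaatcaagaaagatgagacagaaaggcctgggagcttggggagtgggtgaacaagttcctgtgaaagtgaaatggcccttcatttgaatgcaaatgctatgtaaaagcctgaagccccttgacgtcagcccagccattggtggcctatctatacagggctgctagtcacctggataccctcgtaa

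The HOXA3 window held TTTATG or its reverse 3 times and the HOXA9 window once, and the windows of HOXA7 and HOXD4 and the other 6 of HOXA3 held neither motif. The CDX4 window held CTTTGA once. Over all 34943 windows listed, 10.6% held the first motif and 12.9% the second. A match describes letters in the window and not a binding site.

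Of the 9 called HOX genes, 7 were of the middle paralogue groups, 6 to 9. HOXA7 was at 1.25 and 7.66 CPM in APS-PM and at 160 and 156 CPM in PPS-PM (log2 5.16, SE 0.93, adjusted p = 0.00219). HOXB9 was at 20.3 and 45.3 CPM against 484 and 535 CPM (log2 3.97, SE 0.69, adjusted p = 0.00126). In both, the sides were well apart. HOXA9 had no count in APS-PM and stood at 7.60 and 3.24 CPM in PPS-PM, at least 39.9-fold higher (adjusted p = 0.000644). HOXC8 had 1 count in each APS-PM library and stood at 15.1 and 6.26 CPM in PPS-PM, a ratio of 242 with an interval of 66.5 to 2000 (adjusted p = 0.000234). HOXC6 rose from 0.574 and 1.07 CPM to 15.2 and 8.76 CPM (log2 3.86, SE 0.69). HOXB6 rose from 6.65 and 8.76 CPM to 40.7 and 30.8 CPM (log2 2.23) and HOXB8 from 12.0 and 17.3 CPM to 94.0 and 126 CPM (log2 2.93), and both calls were lost without APS-PM replicate 1 (adjusted p = 0.0594 and 0.116). Levels of HOXA6 were 0 and 0.853 CPM against 8.35 and 12.8 CPM, and its change did not pass the test (adjusted p = 0.0638).

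HOXB1, of the first paralogue group, was at 192 and 235 CPM in APS-PM and at 164 and 247 CPM in PPS-PM (log2 −0.04, SE 0.42), and its libraries overlapped between the sides. Of the 12 tested genes of paralogue groups 2 to 5, 2 were called, and in 8 of the other 10 both PPS-PM libraries were above both APS-PM libraries. Of all genes tested, 43.6% had no overlap between the sides, in either direction. HOXC4 was at 11.8 and 38.9 CPM against 110 and 113 CPM (log2 2.15, SE 0.91), HOXD3 at 6.01 and 4.05 CPM against 19.0 and 16.1 CPM (log2 1.81, SE 0.79), and HOXA2 at 2.93 and 3.75 CPM against 10.2 and 10.3 CPM (log2 1.63, SE 0.52). HOXC5 and HOXB3 had log2 fold changes of 1.29 and 0.99, and HOXA4, HOXA5, HOXB2, HOXB4 and HOXB5 of −0.42 to 0.96. None of these 10 passed the test (lowest adjusted p = 0.0839, for HOXA2). The called genes were HOXA3, at 15.2 and 33.0 CPM against 134 and 140 CPM (log2 2.53, SE 0.54, adjusted p = 0.00921), and HOXD4, at 6.52 and 4.74 CPM against 44.7 and 33.8 CPM (log2 2.82, SE 0.59, adjusted p = 0.0078). The call of HOXA3 was lost without APS-PM replicate 1 (adjusted p = 0.149). The call of HOXD4 was lost without APS-PM replicate 1 (0.064), APS-PM replicate 2 (0.0861) or PPS-PM replicate 1 (0.0514). At the other end, no gene of paralogue groups 10 to 13 was called, and HOXC9, HOXC10, HOXC13 and HOXD9 to HOXD12 were at the floor on both sides. At 24 h, before the PM medium, 33 of the 37 tested HOX genes had been called, against 9 at 48 h. Of all genes tested, 14.6% were called at 24 h and 5.25% at 48 h.

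**Figure D3:**
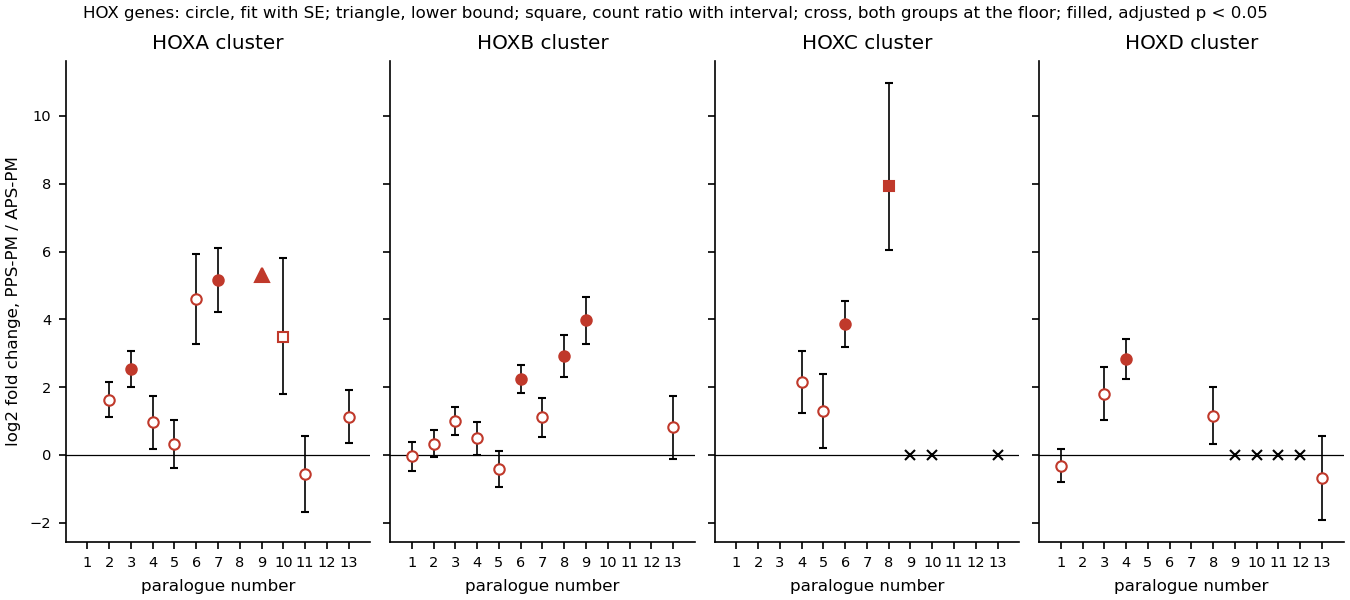
Log2 fold change of PPS-PM over APS-PM (vertical axis) by paralogue number (horizontal axis) for 36 tested HOX genes, 1 panel for each cluster. Circles are fitted changes with SE, the triangle (HOXA9) a lower bound, squares (HOXC8 and HOXA10) count ratios with their 95% counting interval, crosses genes at the floor on both sides, and filled symbols the 9 called genes. Filled symbols lie at numbers 3 to 9, and HOXB1 and HOXD1 lie near 0.

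The other CDX factors, CDX1 and CDX2, were not called. CDX2 was at 166 and 194 CPM in APS-PM and 171 and 190 CPM in PPS-PM (log2 0.02, SE 0.40), and CDX1 at 164 and 190 CPM against 129 and 189 CPM (log2 −0.14, SE 0.31). Both overlapped between the sides. Of the TALE cofactors of HOX proteins, MEIS1 fell from 22.0 and 32.4 CPM to 3.77 and 3.90 CPM (log2 −2.81, SE 0.48, adjusted p = 0.000822). MEIS3 fell by 1.27 log2 units (adjusted p = 0.0151), a call lost without APS-PM replicate 1 (0.289) or PPS-PM replicate 2 (0.26). MEIS2, PBX2, PBX3, PBX4, PKNOX1 and PKNOX2 were not called.

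Within the presomitic program, 2 of 19 tested genes were called, and neither call was kept without each of the 4 libraries. These 2 were 10.5% of the list, against 5.25% of all genes tested. HEYL, a Notch target, was at 85.9 and 31.4 CPM in APS-PM and at 13.8 and 14.9 CPM in PPS-PM (log2 −2.01, adjusted p = 0.0101). It was not called without APS-PM replicate 1 (0.374), PPS-PM replicate 1 (0.0796) or PPS-PM replicate 2 (0.0841). MESP1, a factor of the earliest mesoderm, was at the floor in APS-PM and at 3.94 and 1.81 CPM in PPS-PM, a ratio of 25.9 with an interval of 10.8 to 81.2 (adjusted p = 0.00927). Its call was lost without APS-PM replicate 1 (0.0914), APS-PM replicate 2 (0.1) or PPS-PM replicate 1 (0.072). Genes that mark the maturing, anterior end of the presomitic mesoderm were at low levels and were not called. RIPPLY2 was at 3.16 and 0.0853 CPM in APS-PM and 0 in both PPS-PM libraries (adjusted p = 0.0589), and MEOX1 was at 2.49 and 0.768 CPM against 0.130 and 0 CPM (adjusted p = 0.143). Among 12 tested somite genes, FOXC1, a forkhead factor of the paraxial mesoderm, was at 335 and 298 CPM against 99.4 and 134 CPM (log2 −1.42, SE 0.31, adjusted p = 0.00709), a call lost without APS-PM replicate 1 (0.0615) or PPS-PM replicate 1 (0.0857). PAX3, a factor of dermomyotome and neural crest, was at 1.53 and 1.28 CPM against 12.4 and 6.57 CPM (log2 2.76, SE 0.64, adjusted p = 0.0102). The PAX3 call was lost without APS-PM replicate 1 (0.0919), APS-PM replicate 2 (0.0978) or PPS-PM replicate 1 (0.0796).

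ALDH1A2 (ENSG00000128918), which makes retinoic acid and is expressed in presomitic mesoderm and somites, had the largest called change among the somite genes. It was at 327 and 495 CPM in APS-PM and at 41.7 and 55.1 CPM in PPS-PM (log2 −3.07, SE 0.46, adjusted p = 0.000208). Both PPS-PM libraries were far below both APS-PM libraries. Of the 15 tested retinoic acid genes 4 (26.7%, against 5.25% of all genes tested) were called, ALDH1A2 and the 2 that rose among them. RARG, a retinoic acid receptor, was at 57.3 and 54.7 CPM against 99.5 and 90.9 CPM (log2 0.78, SE 0.13, adjusted p = 0.000575). DHRS3, which reduces retinaldehyde back to retinol, rose from 0.813 and 1.83 CPM to 15.1 and 10.4 CPM (log2 3.26, adjusted p = 0.0048), a call lost without APS-PM replicate 1 (0.114).

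Some genes of the anterior streak and organizer and some neural-associated transcription factors were lower in PPS-PM. GSC, the homeobox gene of the organizer, was at 3.96 and 3.86 CPM in APS-PM and at 0.216 and 0 CPM in PPS-PM (log2 −5.02, SE 0.54, adjusted p = 7.17e-06). OTX2, a factor of the anterior epiblast and forebrain, was at 18.7 and 11.7 CPM against 2.47 and 0.190 CPM (log2 −3.47, SE 0.59, adjusted p = 0.000782). These were the 2 called among 10 tested organizer, node and notochord genes (20%, against 5.25% of all genes tested). Fitted changes of the others went both ways. CHRD was at 9.47 and 11.5 CPM in APS-PM and at 21.4 and 30.9 CPM in PPS-PM (log2 1.34, SE 0.40, adjusted p = 0.0552). NOG was below 1 CPM in all 4 libraries and 0.93 log2 units higher in PPS-PM. FOXA2 was at 1.53 and 0.171 CPM against 0 in both PPS-PM libraries (adjusted p = 0.162). The median of the 10 was −1.51 as fitted. It rested on FOXA1 (−0.89) and FOXD3 (−2.12), which were at the floor on both sides, so no direction is read from it. Of 13 tested neural and neuromesodermal genes, 4 (30.8%) fell and none rose, and they were OTX2, ZIC2, ZIC5 and NKX6-1. ZIC5 was at 31.4 and 31.9 CPM against 2.12 and 2.43 CPM (log2 −3.78, SE 0.32, adjusted p = 4.32e-07), and ZIC2 at 71.4 and 82.0 CPM against 8.08 and 14.8 CPM (log2 −2.73, SE 0.41, adjusted p = 0.000245). ZIC factors act in neural tissue and also in mesoderm. The neural-defining SOX1 and PAX6 were too low to be tested. NKX6-1 had 240 counts in APS-PM and 3 in PPS-PM, a ratio of 79.6 with an interval of 26.9 to 389, and its call was lost without APS-PM replicate 2 (0.073) or PPS-PM replicate 2 (0.109).

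Of 8 tested primitive streak genes 2 rose (FGF4 and MESP1) and 2 fell (GSC and EOMES). Together these were 50% of the list, against 5.25% of all genes tested. TBXT (Brachyury) was at 133 and 336 CPM in APS-PM and at 402 and 557 CPM in PPS-PM, a difference that did not pass the test (log2 1.05, SE 0.39, adjusted p = 0.142). EOMES, at 6.93 and 1.32 CPM against 0.389 and 0.571 CPM (log2 −3.06, adjusted p = 0.0491), was called only at the threshold and not without APS-PM replicate 1 (0.742), PPS-PM replicate 1 (0.198) or PPS-PM replicate 2 (0.198). Among 13 tested nodal and activin genes 2 (15.4%) fell and none rose. INHBA, which encodes the activin A subunit, was at 3.80 and 3.54 CPM and at the floor in PPS-PM, 80.6-fold lower with an interval of 22 to 672 (adjusted p = 0.0019). NODAL, LEFTY1, LEFTY2 and CER1 were not called.

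After a day with LDN-193189, some BMP target genes were higher in PPS-PM. Of 10 tested, 5 (50%, against 5.25% of all genes tested) rose and none fell, with a median log2 fold change of 0.97. ID4, an inhibitor of helix-loop-helix factors, was at 7.61 and 3.24 CPM in APS-PM and at 37.9 and 18.1 CPM in PPS-PM (log2 2.39, SE 0.44, adjusted p = 0.00153). ID1 was at 10.4 and 3.29 CPM against 53.6 and 30.7 CPM (log2 2.65, SE 0.51, adjusted p = 0.00216). The other 3 were SMAD7, SMAD9 and MSX2, at 1.15 to 1.18 log2 units. The count leaned on APS-PM replicate 2: without it ID4 alone of the 5 stayed called, and ID1 (0.0575), SMAD7 (0.0692), SMAD9 (0.14) and MSX2 (0.27) did not. Without PPS-PM replicate 1, SMAD9 (0.153) and MSX2 (0.223) were lost, and MSX2 was also lost without APS-PM replicate 1 (0.0853) or PPS-PM replicate 2 (0.0636). ID3 was at 182 and 92.0 CPM against 91.5 and 43.6 CPM (log2 −1.01, adjusted p = 0.162), and MSX1 at 103 and 93.7 CPM against 117 and 96.3 CPM. Of 15 tested BMP ligands and modulators 1 was called (6.67%), near the 5.25% of all genes tested. This was NBL1, an antagonist of the DAN family, which fell by 1.67 log2 units (adjusted p = 0.00934). The NBL1 call was lost without APS-PM replicate 2 (0.0543) or PPS-PM replicate 1 (0.113).

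Of 16 tested FGF ligands 5 (31.2%, against 5.25% of all genes tested) rose and none fell, with a median of 0.81. FGF4, a ligand of the streak and tail bud, was at 5.69 and 3.32 CPM in APS-PM and at 51.7 and 84.6 CPM in PPS-PM (log2 3.94, SE 0.36, adjusted p = 1.21e-06). FGF3 was at 0.622 and 0.555 CPM against 19.9 and 17.9 CPM (log2 5.01, SE 0.70, adjusted p = 0.000231). Neither overlapped, and the lower PPS-PM library was still well above the higher APS-PM library. FGF19 rose from 4.04 and 6.41 CPM to 34.8 and 84.4 CPM (log2 3.53, SE 0.57), and FGF10, a ligand of limb and lung mesenchyme, from 2.58 and 3.76 CPM to 13.8 and 19.3 CPM (log2 2.40, SE 0.43). FGF1 was at 1.39 and 13.6 CPM against 71.3 and 107 CPM (adjusted p = 0.0425), and its call was lost without APS-PM replicate 1 (0.34), PPS-PM replicate 1 (0.0665) or PPS-PM replicate 2 (0.189). FGF8, the main ligand of the presomitic gradient, was at 4.63 and 21.6 CPM against 20.6 and 72.8 CPM and was not called (adjusted p = 0.163). In FGF-ERK feedback, 2 of 16 genes (12.5%) were called in opposite directions. SPRY4 was at 156 and 224 CPM against 448 and 630 CPM (log2 1.52, adjusted p = 0.0135), lost without APS-PM replicate 1 (0.204) or PPS-PM replicate 2 (0.153). SPRY2 was at 61.4 and 82.9 CPM against 44.7 and 35.4 CPM (log2 −0.84, adjusted p = 0.0155), lost without APS-PM replicate 2 (0.171) or PPS-PM replicate 2 (0.188).

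Of 14 tested WNT ligands, 2 (14.3%, against 5.25% of all genes tested) were called. WNT5A and WNT5B, ligands of the non-canonical branch, rose and none fell. WNT5A was at 321 and 240 CPM in APS-PM and at 1130 and 750 CPM in PPS-PM (log2 1.76, SE 0.27, adjusted p = 0.000277). WNT5B was at 175 and 217 CPM against 700 and 936 CPM (log2 2.08, SE 0.40, adjusted p = 0.00223), with the call lost without APS-PM replicate 1 (0.0584). Of 15 tested WNT feedback genes, 2 (13.3%) fell and none rose. LGR5, a receptor that amplifies WNT signaling, fell from 80.1 and 110 CPM to 13.1 and 20.4 CPM (log2 −2.48, SE 0.40, adjusted p = 0.000449). TNFRSF19 fell by 1.62 log2 units (adjusted p = 0.027), lost without APS-PM replicate 2 (0.211) or PPS-PM replicate 1 (0.207). AXIN2, the common readout of canonical WNT activity, was at 170 and 296 CPM against 137 and 205 CPM and was not called (log2 −0.43, SE 0.31), and SP5 and DKK1 were not called either. In the Notch list, JAG1 and HEYL were the 2 called of 16 (12.5%), JAG1 being higher by 0.75 log2 units (adjusted p = 0.0055). The JAG1 call was lost without APS-PM replicate 2 (0.111) or PPS-PM replicate 1 (0.0552).

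Of 32 tested epithelial genes 8 (25%, against 5.25% of all genes tested) rose and none fell, with a median of 0.48. ESRP1, an epithelial splicing regulator, was at 13.3 and 11.8 CPM in APS-PM and at 29.4 and 41.7 CPM in PPS-PM (log2 1.52, SE 0.27, adjusted p = 0.00115). ST14, the protease matriptase, was at 2.19 and 2.13 CPM against 7.50 and 9.04 CPM (log2 1.94, SE 0.37, adjusted p = 0.00209). GRHL2, a factor that maintains epithelia, was at 2.26 and 1.19 CPM against 6.57 and 7.52 CPM (log2 2.05, SE 0.43, adjusted p = 0.00542), lost without APS-PM replicate 2 (0.101). The others were EPCAM, CLDN4, AP1M2, RAB25 and MARVELD2, with log2 fold changes of 1.09 to 1.86. Without APS-PM replicate 2 only ESRP1 and ST14 of the 8 stayed called, against 7 without APS-PM replicate 1, 5 without PPS-PM replicate 1 and 3 without PPS-PM replicate 2. The amnion sum given above was also higher in PPS-PM, and its part in these rises was not tested. Keratins KRT7, KRT8, KRT18 and KRT19 were not called.

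Of 14 tested mesenchymal genes 3 rose and 1 fell (28.6% called, against 5.25% of all genes tested). FN1, which encodes fibronectin, was at 631 and 542 CPM in APS-PM and at 2300 and 1300 CPM in PPS-PM (log2 1.63, SE 0.28, adjusted p = 0.00105). TGFBI, a secreted matrix protein, was at 9.81 and 16.4 CPM against 82.2 and 100 CPM (log2 2.81, SE 0.33, adjusted p = 1.72e-05). PRRX1, a factor of limb and craniofacial mesenchyme, was at 0.0478 and 0.512 CPM against 10.9 and 6.43 CPM (adjusted p = 0.00903), lost without APS-PM replicate 1 (0.136). TWIST1 was at 14.9 and 9.86 CPM against 3.4 and 3.0 CPM (adjusted p = 0.0199), lost without APS-PM replicate 1 (0.188), PPS-PM replicate 1 (0.0857) or PPS-PM replicate 2 (0.159). SNAI1, SNAI2, ZEB1 and ZEB2 were not called, all 4 being repressors of the epithelial state.

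Of 37 tested collagen, laminin and other matrix genes, 8 rose and 3 fell (29.7% called, against 5.25% of all genes tested). COL6A1 was at 372 and 334 CPM in APS-PM and at 1020 and 1010 CPM in PPS-PM (log2 1.54, SE 0.23, adjusted p = 0.000256), and the fibrillar collagen COL5A2 at 258 and 355 CPM against 959 and 1020 CPM (log2 1.71, SE 0.30, adjusted p = 0.00105). HAPLN1, which links hyaluronan to proteoglycans, rose from 53.8 and 30.7 CPM to 408 and 241 CPM (log2 2.96, SE 0.53). COL1A2, a chain of type I collagen, moved the other way, from 1640 and 1820 CPM to 666 and 749 CPM (log2 −1.27, SE 0.26, adjusted p = 0.00343). FBN2, a fibrillin, fell by 0.84 (SE 0.15) and LAMA4, a laminin chain, was at 0.910 and 1.02 CPM and at the floor in PPS-PM, 21.4-fold lower with an interval of 5.58 to 182. COL3A1 was at 20.9 and 30.1 CPM against 272 and 257 CPM (log2 3.39, adjusted p = 0.00216), lost without APS-PM replicate 1 (0.0594). The other 4 rises, COL4A5, COL4A6 and COL9A2 among them, were at most 1.42 log2 units and each was lost without at least 2 of the 4 libraries, so that 6 of the 11 calls were kept throughout.

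Eph, ephrin and semaphorin genes changed in both directions. The share called was 27.3% for Eph and ephrin genes and 27.8% for semaphorin, slit and netrin genes, against 5.25% of all genes tested. Of 22 tested Eph and ephrin genes, 5 fell (EPHA8, EPHA10, EPHB1, EPHB3 and EFNA2) and EPHA4 rose, from 127 and 247 CPM to 415 and 512 CPM. None of the 6 calls was kept without each of the 4 libraries, and only 1 was kept without APS-PM replicate 1 and 1 without PPS-PM replicate 2. Of 36 tested semaphorin, slit and netrin genes, 4 rose and 6 fell. SEMA5A fell from 54.5 and 97.5 CPM to 6.23 and 8.80 CPM (log2 −3.32, SE 0.36, adjusted p = 8.07e-06), and SEMA6B from 30.6 and 15.7 CPM to 5.39 and 4.30 CPM (log2 −2.24, SE 0.40). SLIT1, a secreted ligand of ROBO receptors, rose from 27.0 and 38.6 CPM to 349 and 347 CPM (log2 3.42, SE 0.42, adjusted p = 2.71e-05). SEMA6A rose from 179 and 120 CPM to 421 and 346 CPM (log2 1.37, SE 0.21). These 4 of the 10 calls were kept without each of the 4 libraries.

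Of the lists with at least 5 calls, only the contractile genes kept every call without each library. Of 14 tested, 5 rose and none fell, with a median of 1.17, and all 5 stayed called without each of the 4 libraries. Besides ACTA1, ACTC1, the cardiac actin, was at 19.3 and 10.2 CPM in APS-PM and at 178 and 107 CPM in PPS-PM (log2 3.29, SE 0.48, adjusted p = 0.000192). ACTA2, the smooth muscle actin, was at 10.1 and 11.0 CPM against 52.9 and 71.7 CPM (log2 2.58, SE 0.39, adjusted p = 0.00022). TPM1, a tropomyosin, was at 125 and 123 CPM against 410 and 334 CPM (log2 1.60, SE 0.18, adjusted p = 9.54e-06), and MYL9, a myosin light chain, at 137 and 131 CPM against 270 and 259 CPM (log2 0.99, SE 0.20). The 5 made up 35.7% of the list, against 5.25% of all genes tested. The sides did not overlap for any of the 5, as for all 940 called genes. The sarcomeric genes MYH6 and TNNT2 were not called.

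In the lists of lineages outside PM the share called ran from 0 to 30.8%, against 5.25% of all genes tested. It was 30.8% for the neural and neuromesodermal genes given above and 26.7% for amnion and surface ectoderm. It was 14.3% for pluripotency, 13.3% each for blood and endothelium and for lateral and cardiac mesoderm, and 11.1% for germ cells. Of 15 tested amnion and surface ectoderm genes 4 rose, namely TFAP2A, from 0.239 and 0.427 CPM to 7.14 and 3.76 CPM (log2 4.00, SE 0.57, adjusted p = 0.000126), GATA3, from 0.239 and 0.0853 CPM to 4.98 and 3.53 CPM (log2 4.70, SE 0.64), GATA2 and DLX5. No gene of this list was called lower, its median log2 fold change was 0.31, and the fitted changes of those not called went both ways. GABRP was at 1.20 and 0.768 CPM against 0.432 and 0 CPM (log2 −2.10, adjusted p = 0.121). WNT6 was at 3.82 and 8.77 CPM against 0.910 and 1.85 CPM (log2 −2.17, adjusted p = 0.0593). GATA2, which is also a blood and endothelial factor, was at 1.53 and 0.640 CPM against 14.4 and 12.8 CPM (log2 3.68, SE 0.42, adjusted p = 1.55e-05). DLX5 was below 1 CPM in all 4 libraries, and its call was lost without APS-PM replicate 1 (0.0558), APS-PM replicate 2 (0.135) or PPS-PM replicate 1 (0.0836). KDR, the VEGF receptor of early mesoderm, was at 31.3 and 16.7 CPM against 79.4 and 112 CPM (log2 2.02, adjusted p = 0.00844), lost without APS-PM replicate 2 (0.127) or PPS-PM replicate 2 (0.0895). Apart from GATA2 and KDR, no gene among the 15 tested of the blood and endothelium list was called. Of 15 lateral and cardiac genes, 1 rose and 1 fell. The rise was that of TBX3, by 1.02 log2 units (adjusted p = 0.0128), and its call was lost without APS-PM replicate 1 (0.136), APS-PM replicate 2 (0.0727) or PPS-PM replicate 1 (0.149). None of 12 definitive endoderm and none of 9 intermediate mesoderm genes was called by edgeR, while 2 and 1 had an unadjusted p under 0.05 and DESeq2 called 2 and 0. Of 9 germ cell genes KIT rose by 2.19 (adjusted p = 0.0199), lost without APS-PM replicate 1 (0.0843), APS-PM replicate 2 (0.172) or PPS-PM replicate 1 (0.18). Of 14 pluripotency genes, L1TD1, an RNA-binding protein of stem cells, was at 76.4 and 92.3 CPM against 195 and 242 CPM (log2 1.39, SE 0.22, adjusted p = 0.000305). PRDM14 fell by 2.31 (adjusted p = 0.00255), lost without APS-PM replicate 1 (0.074) or PPS-PM replicate 2 (0.0685).

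Of 22 tested hypoxia and glycolysis genes, 3 (13.6%, against 5.25% of all genes tested) fell. The glucose transporter SLC2A1 was at 623 and 353 CPM in APS-PM and at 133 and 155 CPM in PPS-PM (log2 −1.74, SE 0.32, adjusted p = 0.00152). ALDOC, an aldolase, was at 32.7 and 25.4 CPM against 11.1 and 14.1 CPM (log2 −1.19, SE 0.24), and the third was EGLN3, an oxygen sensor, at −1.57. None of the 3 was called without APS-PM replicate 1 (adjusted p = 0.0538, 0.0634 and 0.161), and ALDOC was also lost without PPS-PM replicate 1 (0.0551) and EGLN3 without PPS-PM replicate 2 (0.149). No gene was called among 22 of the cell cycle, 19 of cholesterol synthesis or 15 of the stress and p53 response, with medians of −0.15, −0.03 and −0.15. In that order, 6, 2 and 3 of them had an unadjusted p under 0.05 in edgeR, and DESeq2 called 3, 0 and 1. The share called by edgeR over all genes tested, to be set beside the list totals that follow, was 5.25%. Over the 36 lists there were 522 tested genes, of which 102 were called, 65 higher and 37 lower, and 45 of the 102 were called without each of the 4 libraries.

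**Figure D4:**
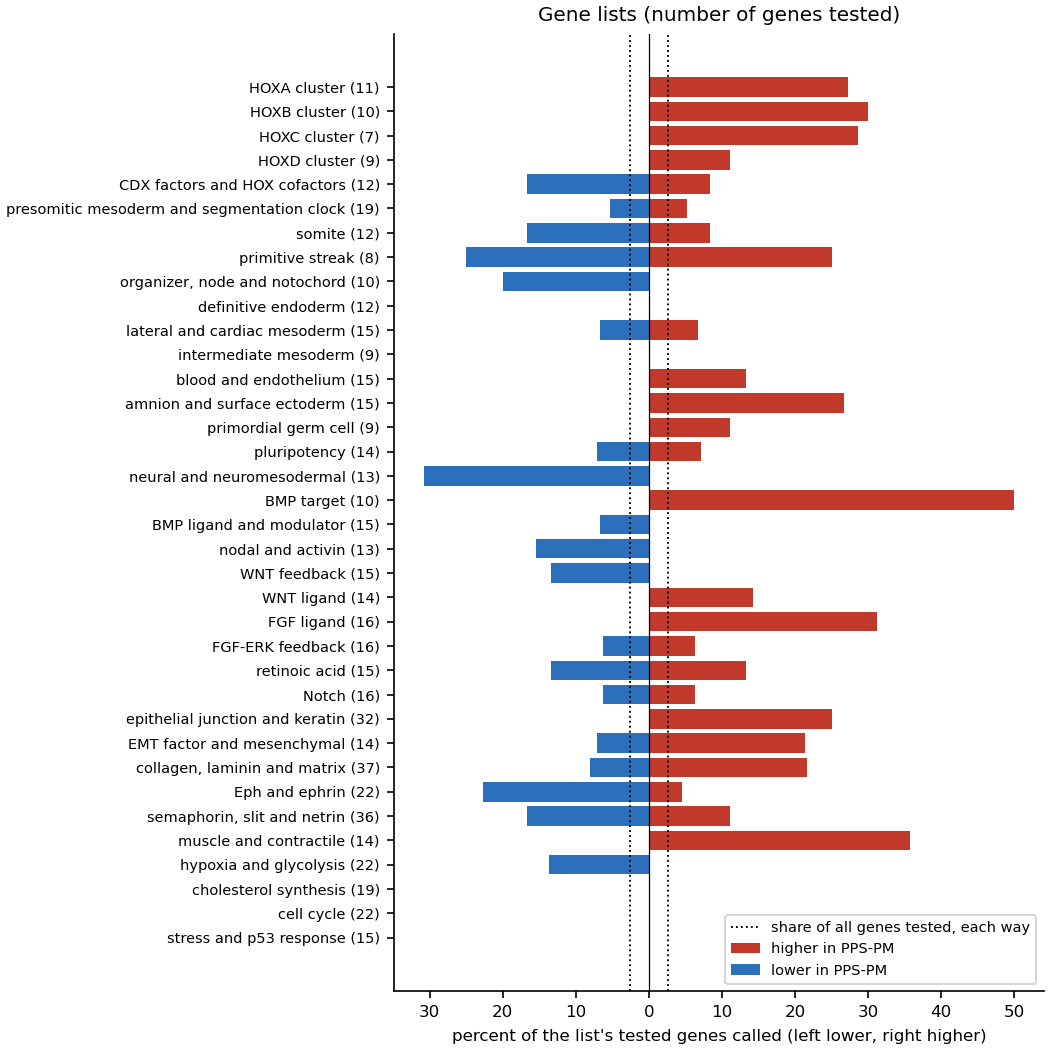
Percent of the tested genes of each list that were called higher (red, to the right) or lower (blue, to the left) in PPS-PM, with the number of genes tested after each name. Dotted lines mark the share of all genes tested, 2.63% in each direction. BMP targets (5 of 10), contractile genes (5 of 14) and FGF ligands (5 of 16) reach furthest to the right, neural genes (4 of 13) furthest to the left.

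To see how much of the difference was present before the PM medium, PPS and APS cells at 24 h, from separate libraries, were compared in the same fit. At 24 h 2613 genes were called, 14.6% of those tested. Of the 940 genes called at 48 h, 418 had been called at 24 h, which is 44.5% of the former and 16.0% of the latter. The direction was the same for 366 of them (38.9% of the 940), and the other 522 (55.5%) were not called at 24 h. Higher genes were carried over in 212 of 470 cases (45.1%) and lower genes in 154 of 470 (32.8%). Over the 940 genes the changes of both days correlated at r = 0.594 (Spearman's rho = 0.616), a description across genes, which are not independent. CDX4 had a log2 fold change of 5.75 at 24 h against 5.98 at 48 h, and ZIC5 of −3.85 against −3.78. For both genes the fitted sizes on the 2 days lay within 1 SE of each other.

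Other genes were called at 48 h and not at 24 h, and the difference between the days was not tested for them. TNMD stood at means of 1.14 and 1.20 CPM in APS and PPS cells at 24 h, and ACTA1 at 5.77 and 12.9 CPM (adjusted p = 0.0985). TPM1 was at 326 and 353 CPM at 24 h (log2 0.06, adjusted p = 0.889), STAB2 at 0.609 and 1.03 CPM and BGN at 2.92 and 2.46 CPM. BMP3 had no count in APS or PPS cells at 24 h. HOXB6, unlike these, was called on both days. It was at means of 0.743 and 197 CPM at 24 h, with a log2 fold change of 7.98, against 2.23 at 48 h, and whether the days differed was not tested.

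For 52 genes (5.53% of the 940) both differences were called, in opposite directions. ALDH1A2 was higher in PPS than in APS cells at 24 h, at means of 8.13 and 1.40 CPM (log2 2.48, adjusted p = 0.00302), and then 411 CPM in APS-PM against 48.4 CPM in PPS-PM at 48 h. COL5A2 was at 35.2 CPM in PPS and 132 CPM in APS cells (log2 −1.96) before its rise of 1.71 in PPS-PM. RORA, a nuclear receptor, went from 2.73 log2 units higher at 24 h to 1.25 lower at 48 h, and SAT1, a polyamine acetyltransferase, from 0.91 higher to 2.11 lower (395 and 489 CPM against 81.6 and 120 CPM). AJAP1, a junction protein, went from 1.78 to −2.58, and FREM1, a basement membrane protein, from −1.98 to 2.00. ELOVL2, an elongase of polyunsaturated fatty acids, went from −3.29 to 1.99, and SLC8A1, a sodium-calcium exchanger, from −2.17 to 3.52. These genes of opposite directions were picked after their values were seen.

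**Figure D5:**
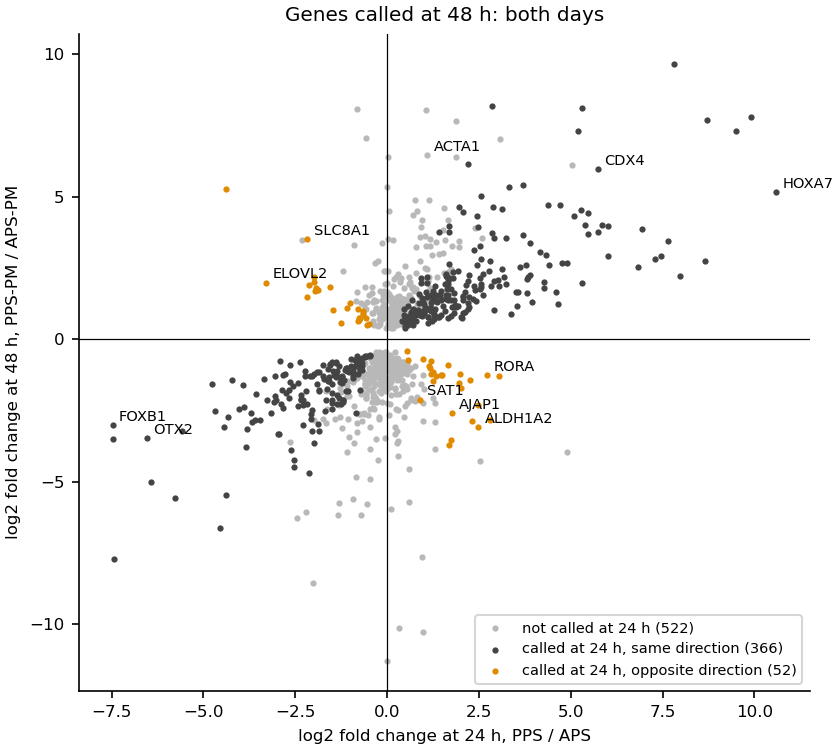
Log2 fold change at 48 h (PPS-PM over APS-PM, vertical axis) against that at 24 h (PPS over APS, horizontal axis) for the 940 genes called at 48 h. Dark points are the 366 genes called at 24 h in the same direction, orange points the 52 called in the opposite direction, and grey points the 522 not called at 24 h.

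The other PM populations of the series, from mid streak (MPS) and DE(a) cells, give the levels side by side. MPS cells had received 40 ng/ml of BMP4, 30 ng/ml of activin, 20 ng/ml of bFGF and CHIR99021 at 6 µM on day 1, and DE(a) cells 100 ng/ml of activin and CHIR99021 at 2 µM without BMP4 or bFGF. CDX4 averaged 30.0 CPM in MPS-PM and 1.30 CPM in DE(a)-PM, and HOXA7 45.0 and 1.32 CPM. For both, MPS-PM lay between PPS-PM and APS-PM. FGF4 averaged 6.74 CPM in MPS-PM and 6.95 CPM in DE(a)-PM, near the APS-PM libraries, and ACTC1 20.9 and 11.8 CPM. ZIC5 averaged 12.2 CPM in MPS-PM and 39.6 CPM in DE(a)-PM, SLC2A1 194 and 699 CPM, and ALDH1A2 229 and 357 CPM. In these 3 genes, APS-PM and DE(a)-PM had the higher means and PPS-PM the lowest. APS and DE(a) cells had received no BMP4 and also less CHIR99021 than MPS and PPS cells, and these cannot be told apart. Activin differed as well, since PPS cells alone had received none. By the labels, MPS and PPS cells differed on day 1 in activin only. Whether MPS-PM and PPS-PM differed in these genes was not tested. TBX6 averaged 157 CPM in both MPS-PM and DE(a)-PM.

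Whether the PPS-APS difference depended on the day 2 medium was tested as an interaction, against the same pair of day 1 treatments moved to LM or DE(b) medium. LM medium held 30 ng/ml of BMP4, A-8301 at 1 µM and IWP2, which blocks WNT secretion, at 4 µM. DE(b) medium held 100 ng/ml of activin and LDN-193189 at 250 nM. Against LM the difference changed for 851 genes (4.76% of those tested) and against DE(b) for 1071 (5.98%). Of the 940 genes called in PM, 285 (30.3%) and 275 (29.3%) were among them, respectively. The 940 were chosen by the PM difference, which is part of both interactions. Their shares are therefore not compared with those of all genes tested. The genes named next were also chosen as called in PM. TNMD and FGF3, which rose by 6.41 and 5.01 log2 units in PM, differed by −0.54 and −0.95 in LM and by 1.09 and 4.51 in DE(b). SLIT1 rose by 3.42 in PM and differed by −0.84 in LM and 0.37 in DE(b). ALDH1A2, lower by 3.07 in PM, was higher by 4.43 in LM and by 2.20 in DE(b). MEIS1, lower by 2.81 in PM, differed by 1.15 in LM and 1.05 in DE(b). In edgeR, the adjusted p of the difference between media was 0.00744 for TNMD and 0.000478 for FGF3 against LM, and 0.0391 and 0.844 against DE(b), where the difference for FGF3 was 0.50. It was 0.000198 and 0.00414 for SLIT1, 3.32e-06 and 0.0342 for ALDH1A2 and 0.000556 and 0.00179 for MEIS1, against LM and DE(b) in that order.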

How the data were processed

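RNA from wild-type ESI017 cells was sequenced after poly(A) selection with a stranded kit. The authors quantified reads with Salmon 1.10.2 and summed transcripts to genes in R 4.4.2, against GRCh38 per the labels, and deposited estimated counts with no normalization. No per-sample column was left unused (0). Here the estimated counts were rounded and analysed with edgeR 4.0.16 (R 4.3.3), using TMM scaling, the filterByExpr filter by condition, 1 mean per condition over 34 libraries (17 conditions of 2), quasi-likelihood tests and Benjamini-Hochberg adjustment at 0.05. There were 17 residual degrees of freedom and a common dispersion of 0.0611. The spread of a gene is thus shared over all conditions. Replicate 1 libraries share 1 table and replicate 2 libraries another. The submitters describe the replicates as biological.

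The 4 libraries held 20913478 to 23439799 counts. Genes at no more than 3 counts in each library of a group were at the floor, and the bound uses a mean of 0.136 CPM. Mitochondrial genes took 4.76 to 7.41% of counts. CPM used library totals. Genes named were the 15 largest rises and 15 largest falls among called genes with at least 10 CPM in a group and no overlap, and the called members of 36 lists. Of 544 list genes, 20 symbols had more than 1 identifier. DLL1 was among them, so its reads may be split. The comparison, the lists and the rule for named genes were chosen with earlier results of these data known. Genes of opposite direction on both days and the CDX4 promoter were chosen after their values were seen. GENCODE v44 gave chromosomes, and RefSeq gave the promoters. Results were recomputed with RLE scaling, without the filter, with a replicate block, with fewer libraries, with a fold test, with DESeq2 1.42.0 and with each library left out. Some items are not reported here, though counts and medians of lists include them.

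On simulated data for this comparison (17650 genes, 200 changed), edgeR called 142, all in the right direction, with 57% of changes of 1 log2 unit, 85% of those of 2 units and 5 unchanged genes. The changed genes all had more than 1 CPM in APS-PM, so the rates do not cover genes below that level. Libraries were drawn independently, without deviations shared by same-numbered replicates.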

Additional observations from a re-analysis of the deposited data

Results flagged for a closer look

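The results below were singled out because the PPS-APS difference of a named gene in PM medium differed from the same difference in another day 2 medium, by the interaction test of edgeR. Of 123 named genes 3 are not reported here, and of the other 120 this held for 42 against LM medium and 51 against DE(b) medium, with 20 in both. Values are differences in log2 fold change, PM minus the other medium, so a negative value marks a gene whose PPS-APS difference was lower in PM. Named genes were chosen because they were called in PM, so these shares are not compared with the 4.76% and 5.98% of all genes tested. A fitted value for a gene with 1 group at the floor depends on the prior count and is not a bound.

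Against LM, the PPS-APS difference was higher in PM for TNMD (6.95), FGF3 (5.96), MESP1 (5.25), CORIN (4.70), FGF10 (4.54), GATA2 (4.49), HPGD (4.34), SLIT1 (4.26), FGF19 (4.09), KDR (3.90), COL3A1 (3.55), ACTA2 (3.49), LGR5 (3.48), EFHD1 (3.29), GATA3 (3.24), ID4 (3.06), COL5A2 (2.70), ABCC9 (2.38), ACTC1 (2.23), COL9A2 (2.15), FN1 (1.75), EPHA4 (1.66), TPM1 (1.44), L1TD1 (1.19) and RARG (0.65). It was lower in PM for HOXC6 (−9.52), HOXA3 (−8.14), ALDH1A2 (−7.50), HOXD4 (−6.38), LAMA4 (−5.60), INHBA (−5.32), MEIS1 (−3.96), SLC2A1 (−3.33), EPHB3 (−3.14), EPHB1 (−3.12), TNFRSF19 (−2.88), EPCAM (−2.43), BGN (−2.20), MMP25 (−2.12), JAG1 (−1.97), ROBO2 (−1.78) and AP1M2 (−1.17). FGF ligands, contractile genes and collagens were among the higher ones. The HOX genes HOXA3, HOXC6 and HOXD4, which were called higher in PM, had still larger fitted differences in LM, of 10.67, 13.38 and 9.20 log2 units.

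Against DE(b), the difference was higher in PM for KIT (5.92), TNMD (5.32), COL17A1 (3.93), EFHD1 (3.66), DHRS3 (3.43), SLIT1 (3.05), ESRP1 (2.35), ABCC9 (2.30), RAB25 (2.23), SEMA3E (2.03), COL4A6 (1.91), L1TD1 (1.86), SMAD7 (1.85) and COL6A1 (1.69). It was lower in PM for HOXB6 (−11.32), HOXB8 (−10.35), GATA2 (−8.36), HOXB9 (−8.06), HOXA3 (−7.92), HOXC6 (−6.92), LGR5 (−5.51), TNFRSF19 (−5.45), ALDH1A2 (−5.27), GABBR2 (−4.71), FOXB1 (−4.65), FOXC1 (−4.50), EPHA10 (−4.03), WNT5A (−4.01), MEIS1 (−3.86), PEAR1 (−3.71), MSX2 (−3.56), GSC (−3.56), NRP1 (−3.46), LAMA4 (−3.38), WNT5B (−3.24), SLC2A1 (−3.24), EPHB1 (−3.01), BGN (−2.90), EGLN3 (−2.83), ACTC1 (−2.34), HEYL (−2.31), STAB2 (−2.18), CLDN4 (−2.16), ROBO2 (−2.11), JAG1 (−2.0), ZIC5 (−1.86), SEMA5A (−1.80), TBX3 (−1.61), FN1 (−1.60), COL1A2 (−1.43) and FBN2 (−1.36). The 5 HOX genes HOXA3, HOXB6, HOXB8, HOXB9 and HOXC6 stood among the lower ones, and their fitted differences in DE(b) medium were 10.45 for HOXA3, 13.54 for HOXB6, 13.27 for HOXB8, 12.03 for HOXB9 and 10.78 for HOXC6.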

How the results depend on the processing

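For the 940 genes called between PPS-PM and APS-PM, RLE gave 935 calls. No filter gave 1674 and DESeq2 1430, and 930 of the latter were shared. Only the 4 libraries compared gave 160, of which 65.6% were higher against 50% in the full fit, only the 8 PM libraries 389, and a test of at least 2-fold 171. Leaving out 1 library gave 416 to 767 calls (398 to 559 shared with the 940). At 24 h (2613 calls) leaving out 1 library gave 1482 to 2318. The difference against LM (851 calls) gave 1520 with no filter and 482 to 844 with 1 library left out, and that against DE(b) (1071 calls) gave 1712 and 577 to 1107. A group left with 1 library was assumed to vary like the others. The cause of these shifts was not tested.

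The replicate block gave 1375 calls, which held 939 of the 940, and 3357, 1176 and 1510 in the other comparisons. It ended no call of a named gene and added 26 (10 higher, 16 lower) of the 420 list genes not called, among them TBXT (adjusted p = 0.0278), HOXA6 (0.0183), ID3 (0.0234), PBX3 (0.042) and the cell cycle genes AURKA, AURKB and CDC20, all 3 lower in PPS-PM. Deviations of same-numbered APS-PM and PPS-PM libraries correlated at 0.339, and over all 136 pairs of conditions the correlation ran from −0.196 to 0.569 and was over 0.1 in 96. The numbers were to be taken as pairs only if every correlation was over 0.1 or a shared origin was stated, so the fit without the block is reported, although most pairs deviated together.

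No fold change of the 123 named genes changed sign under any alternative. Calls were lost for 1 gene with RLE, 1 with no filter, 2 with DESeq2, 68 with the 2-fold test, 70 of 121 with 4 libraries, 59 of 122 with 8, and 30 to 39 with 1 library left out. With 2 libraries a side, changes of 1 log2 unit are often missed, and levels near 0.136 CPM carry no fold.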
